A study of Mus musculus with 8 samples.

Results

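The surrogate light chain genes are Igll1, Vpreb1, Vpreb2 and Vpreb3. They were taken as every non-control probe of the mouse expression array whose gene name in the scanner files was one of these 4 symbols, which gave 6 of 41174 probes and 4 of 19672 named genes. Igll1 and Vpreb3 had 2 probes each, and Vpreb1 and Vpreb2 had 1. The array study measured B cell precursors from mouse bone marrow that lack the mouse Pax5 gene (Pax5-/-). All of these cells, the controls included, were kept with IL-7 on gamma-irradiated OP9 stromal feeder cells. Clone 4 is a single line that also carries a human Pax5 transgene (huPax5) behind a TRE promoter, which the doxycycline-dependent transactivator rtTA switches on. Its RNA came from cells given doxycycline at 10, 300 or 1000 ng/ml. Pax5sz2 cells carry rtTA and no huPax5, and their label states doxycycline without a dose. Each of these 4 named RNAs shared its arrays with a control RNA from clone 4 kept at 0 ng/ml doxycycline, once in each dye orientation, so that 8 arrays gave 4 comparisons. Each comparison rests on 1 RNA per group, and nothing in the labels gives replicate cultures. Every ± is therefore the SD of 2 technical arrays, and no single comparison has a p-value.

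Igll1 encodes lambda 5, and Vpreb1 and Vpreb2 encode 2 closely related VpreB proteins. Lambda 5 and VpreB together take the place of a light chain beside the immunoglobulin mu heavy chain, and with Cd79a and Cd79b they form the pre-B cell receptor, the checkpoint that tests a new heavy chain before light chains are made. Vpreb3 encodes a related protein that binds newly made immunoglobulin chains inside the cell and is not part of the surface receptor. Igll1, Vpreb1 and Vpreb2 are known as markers of pro-B and large pre-B cells.

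In mm8, the build of the scanner files, the Igll1 probe with the higher intensity (A_52_P493519) lies at chr16:16774574-16774633 on the minus strand. Its second probe (A_52_P273394) lies at chr16:16775743-16775802, 1109 bases away and nearer the 5′ side of the gene. The Vpreb1 probe (A_51_P400217) lies at chr16:16782029-16782088 on the minus strand, 6227 bases from the nearer Igll1 probe. The Vpreb2 probe (A_52_P222003) spans chr16:17894159-17894305 on the plus strand, 1112071 bases from the Vpreb1 probe. The Vpreb3 probes lie on another chromosome, at chr10:75393236-75393295 for the brighter one (A_52_P433847) and chr10:75393014-75393073 for the second (A_51_P375789), both on the plus strand. Exon and UTR annotation of that build was not used here. Vpreb1 and Vpreb2 are near-identical copies, so 1 probe may read both, which was not tested.

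The 3 genes on chromosome 16 went together in the arrays described below, and their upstream sequences are therefore shown. These are the 250 bases before the annotated start of each gene, from RefSeq on GRCm38.p6, read 5′ to 3′ on the gene's strand. All 4 genes had an entry. The lines cover chr16:16863986-16864235 (minus strand) for Igll1, chr16:16869256-16869505 (minus strand) for Vpreb1 and chr16:17980315-17980564 (plus strand) for Vpreb2. Capitals mark matches, on either strand, to 3 motifs: the E-box CAGGTG, the EBF-type half-site pair CCCNNGGG and the Ikaros-type core TGGGAA.
Igll1: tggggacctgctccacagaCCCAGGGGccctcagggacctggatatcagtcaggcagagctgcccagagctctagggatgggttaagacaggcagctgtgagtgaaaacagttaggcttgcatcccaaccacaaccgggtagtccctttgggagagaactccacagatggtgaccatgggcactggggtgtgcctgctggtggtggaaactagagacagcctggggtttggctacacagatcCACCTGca
Vpreb1: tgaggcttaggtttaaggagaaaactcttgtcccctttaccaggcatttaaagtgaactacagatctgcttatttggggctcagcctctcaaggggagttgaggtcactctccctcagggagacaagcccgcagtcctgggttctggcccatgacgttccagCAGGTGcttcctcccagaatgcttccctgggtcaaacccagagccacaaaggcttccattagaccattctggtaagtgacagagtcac
Vpreb2: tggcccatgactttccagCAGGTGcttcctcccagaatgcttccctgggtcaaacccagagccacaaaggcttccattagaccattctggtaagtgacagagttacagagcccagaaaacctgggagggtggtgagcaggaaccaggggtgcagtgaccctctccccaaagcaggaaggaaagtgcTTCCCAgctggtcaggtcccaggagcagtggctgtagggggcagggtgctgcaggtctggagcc
CAGGTG occurred once in each of these 3 sequences, beginning at position -8 relative to the start of Igll1, -88 for Vpreb1 and -232 for Vpreb2. It was also found in 17.2% of 32851 RefSeq promoters of the same length. CCCNNGGG occurred in Igll1 only (11.8% of promoters), and TGGGAA in Vpreb2 only (21.6%). The Vpreb3 window held none of the 3 motifs. The last 106 bases before the Vpreb1 start recur, 144 bases farther upstream, in the Vpreb2 window with 104 identical bases (98.1%). The CAGGTG matches of Vpreb1 and Vpreb2 lie in this shared stretch, so they are 1 observation, not 2. A match describes letters and is not a measured binding site.

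All values below are on a log2 scale. A ratio compares the named RNA with the control RNA on the same array, after background correction with an offset of 50 and loess normalization, and is positive where the named RNA was higher. A level is the normalized log2 intensity of 1 RNA, and the offset alone gives a level of 5.64. A probe passed the size rule if it differed at least 2-fold (a ratio of 1 or more, or of -1 or less) on both arrays of a comparison, in the same direction. A probe was tested if 1 of the RNAs was well above background on both arrays of at least 1 comparison, which held for 29464 probes and for all 6 member probes. Both Igll1 probes and Vpreb1 met this only through the Pax5sz2 comparison. At the doses their ratios, counts and fits rest on signal near background. Levels of different probes cannot be compared with each other.

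Which way the 1000 ng/ml ratios run is not settled. Across tested probes, which are not independent replicates, they correlated with those at 300 ng/ml at r = -0.36 between the arrays with Cy5 on the named RNA and at r = -0.47 between those with Cy3. The pair was also processed with other feature extraction settings, with a multiplier of 2.6 in the background call against 13 on the other arrays. Multiplicative detrending was off for this pair and on elsewhere, so this dose cannot be told apart from its processing batch. Its ratios are given as labelled and change sign if turned. Of 11 pro-B and pre-B cell genes, 10 or 11 were well above background in every RNA on every array. Detection alone does not tell cell types apart here, since on the Pax5sz2 arrays all 9 myeloid and all 10 stromal feeder genes were detected too. By brightest probe, 0 of the 11 pro-B and pre-B cell genes were past the size as higher in Pax5sz2 and 2 as lower. Of all tested gene names, 2.34% and 2.82% were. The 2 were Dntt (-4.66 and -5.11) and Ebf1 (-1.81 and -1.34, another probe differing). The median ratio of the 11 was -0.39. At 10 ng/ml 0 of the 11 passed (1.87% of all names). At 300 ng/ml 0 were higher and 1 lower, Il2ra at -1.26, beside 1.31% and 2.36%. Dntt had a usable ratio on 1 array only at that dose (-2.48), so it could not pass. At 1000 ng/ml as labelled Flt3 (1.60), Cd93 (1.75) and Il2ra (2.37) were higher and Cd79a and Ebf1 lower. That is 3 and 2 of 11, beside 1.94% and 0.636%. Some other Il2ra probes read differently at both doses. Of 4 committed B cell genes only Blnk, a B cell adaptor gene, passed the size rule, in the comparisons other than 10 ng/ml. Its control level was 16.47 on the 1000 ng/ml arrays and 11.85, 11.98 and 12.03 on those of 10 ng/ml, 300 ng/ml and Pax5sz2. In the named RNAs it was 12.27 with 1000 ng/ml, 10.95 with 10 ng/ml, 14.60 with 300 ng/ml and 8.62 for Pax5sz2. The mean ratios of the other 3 genes, Cd22, Ms4a1 and Cr2, lay between -0.15 and 0.39 in the 4 comparisons.

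Vpreb1, Igll1 and Vpreb2 were far higher in Pax5sz2 RNA than in the control, and clone 4 RNA from cells given doxycycline held them at or near background at every dose. Vpreb3 did the opposite: it was bright in every RNA and lower in Pax5sz2 than in the control. Of the 6 member probes, 3 were past the size as higher in Pax5sz2 (1.89% of all tested probes were), 2 as lower (3.24% of all) and 5 in either direction (5.13% of all). At 10 ng/ml 0 of 6 passed, where 1.69% of all tested probes did (0.502% higher, 1.19% lower). At 300 ng/ml 0 of 6 passed as well, where 3.38% of all did (1.09% higher, 2.28% lower). At 1000 ng/ml as labelled 0 of 6 passed, where 2.15% of all did (1.63% higher, 0.519% lower).

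**Figure D1:**
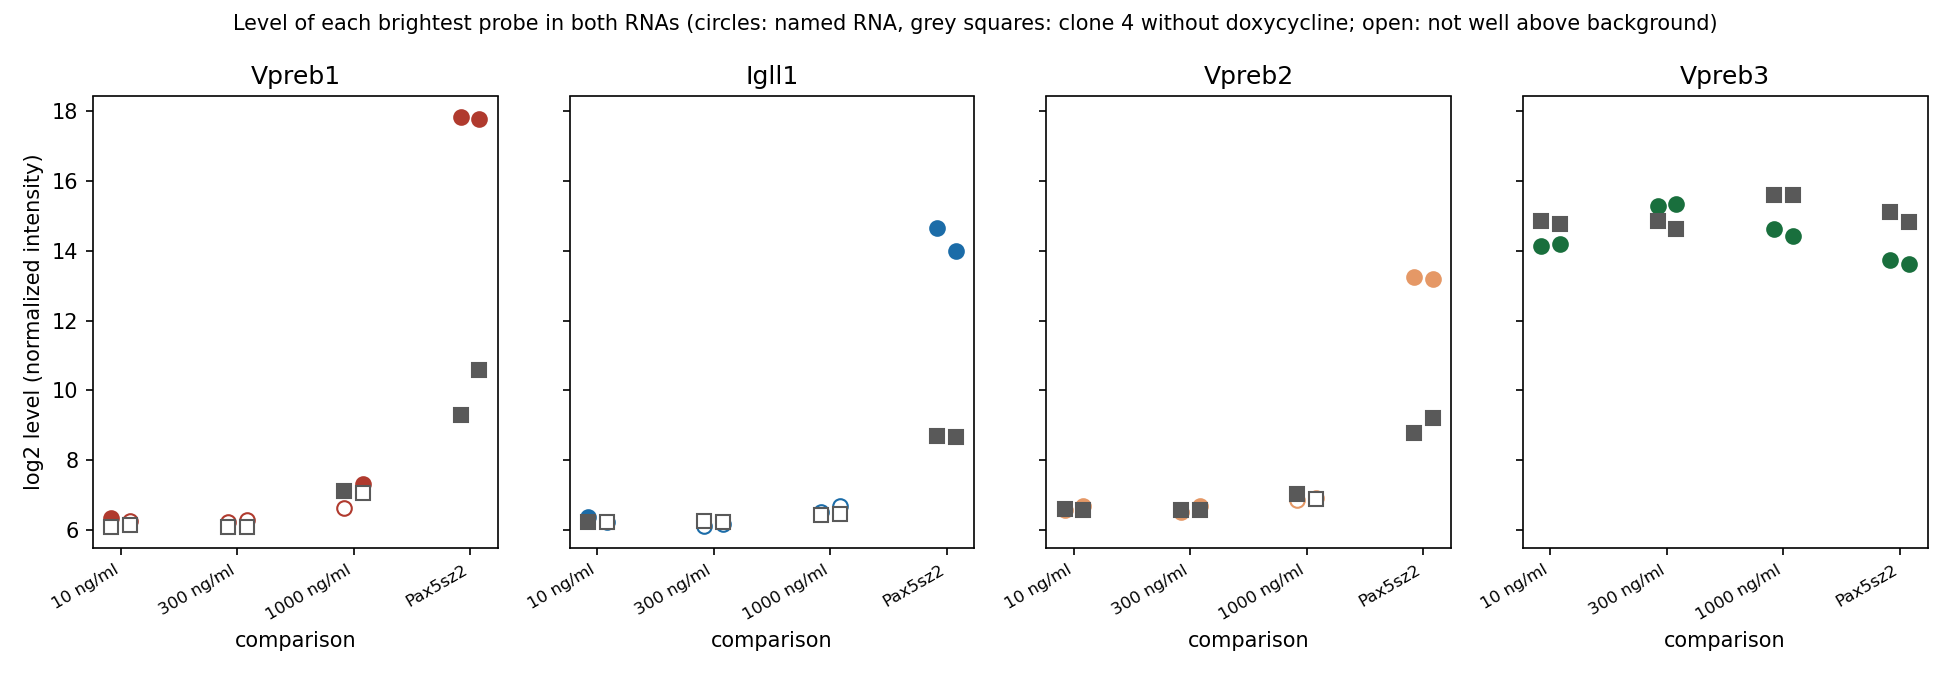
Normalized log2 level of the brightest probe of each gene in the named RNA (circles) and in clone 4 without doxycycline (grey squares), by comparison, with 2 arrays each; open symbols were not well above background. Vpreb1 reached 17.84 and 17.79 in Pax5sz2 RNA, whereas Vpreb3 stayed between 13.63 and 15.62 in all RNAs.

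Vpreb1, a VpreB gene, had the highest ratio of all tested probes in the Pax5sz2 comparison. The level of Vpreb1 in Pax5sz2 RNA was 17.84 with that RNA in Cy5 and 17.79 in Cy3, and the control RNA on the same arrays gave 9.29 and 10.57. Its ratios were 8.55 and 7.22, a mean of 7.88 ± 0.94 or 236-fold, rank 1 of 29461 tested probes with a ratio. The SD of the Vpreb1 level between these arrays was 0.91 in the control RNA and 0.036 in Pax5sz2 RNA. Vpreb2 gave levels of 13.26 and 13.19 in Pax5sz2 RNA against 8.78 and 9.21 in the control RNA. Its ratios of 4.47 and 3.98 averaged 4.23 ± 0.35, or 18.7-fold, at rank 6.

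On the 10 and 300 ng/ml arrays the same probes were close to the offset in both RNAs of clone 4. Vpreb1 levels were 6.23 to 6.33 in the 10 and 300 ng/ml RNAs and 6.07 to 6.14 in the control on those arrays, and the control was well above background on none of these 4 arrays. On the 1000 ng/ml arrays the levels were 6.62 and 7.32 in the named RNA and 7.10 and 7.07 in the control. The Vpreb1 ratios were 0.25 and 0.11 with 10 ng/ml doxycycline, 0.15 and 0.20 with 300 ng/ml, and -0.49 and 0.26 with 1000 ng/ml. The arrays of these 3 doses overlapped one another, and the lowest Pax5sz2 array lay 6.96 above the highest of them. Vpreb2 was faint yet well above background in both RNAs on all 4 arrays of 10 and 300 ng/ml, at levels of 6.52 to 6.68. Its ratios there were -0.044 and 0.099 with the lower dose and -0.044 and 0.11 with the higher, and -0.18 and 0.036 at 1000 ng/ml. At each dose the 2 Vpreb2 ratios lay on either side of 0.

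Igll1, the lambda 5 gene, stood next to Vpreb1. Its brighter probe gave levels of 14.65 and 14.01 in Pax5sz2 RNA and 8.69 and 8.66 in the control. The ratios of 5.97 and 5.34 averaged 5.65 ± 0.44, or 50.4-fold, at rank 2. In clone 4 its ratios were 0.15 and 0.0081 with 10 ng/ml doxycycline, -0.14 and -0.078 with 300 ng/ml, and 0.073 and 0.21 with 1000 ng/ml. Neither RNA was well above background on the 300 and 1000 ng/ml arrays, so no fold is given there. With the authors' processed signals, which carry no offset, Igll1 read -1.40 and -1.23 at 300 ng/ml. The second Igll1 probe read far less. Its levels were 7.10 and 7.52 in Pax5sz2 RNA and 6.37 and 6.29 in the control, and its ratios of 0.74 and 1.23 averaged 0.98 ± 0.35, short of the size on 1 array. The 2 probes thus differed by 4.67 in Pax5sz2, and by 0.18 or less at each dose. The second probe passed the size with an offset of 1 (1.59 and 2.13) and with the processed signals (2.19 and 3.08), so its direction was the same and its size depended on the background step.

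**Figure D2:**
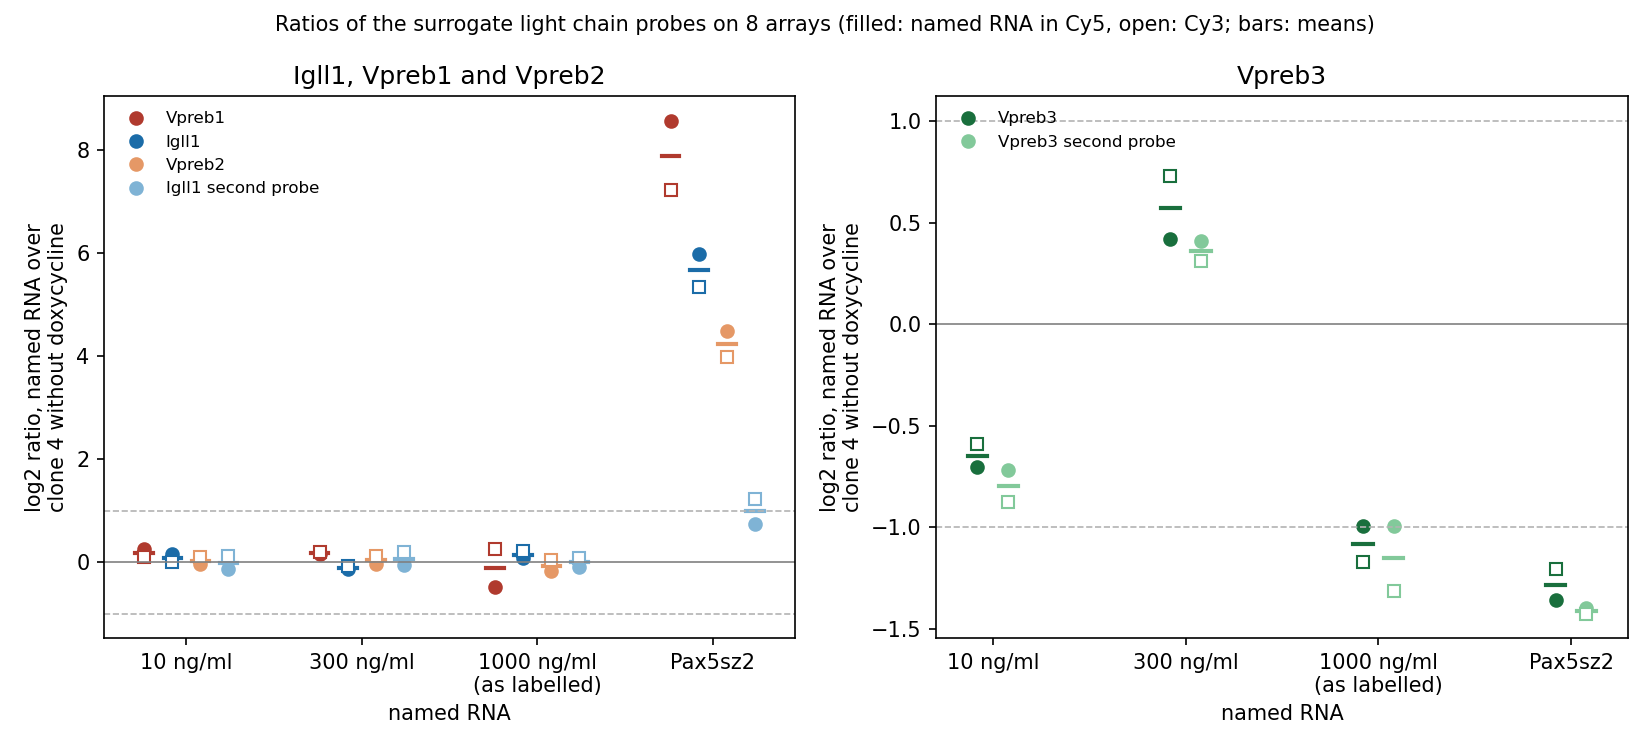
Log2 ratio of the named RNA over clone 4 without doxycycline for each member probe on all 8 arrays (filled circles with the named RNA in Cy5, open squares in Cy3), with bars for the means and dashed lines at the 2-fold size. Vpreb1, Igll1 and Vpreb2 stand apart from 0 in Pax5sz2 only, at 7.88, 5.65 and 4.23, and Vpreb3 lies above 0 at 300 ng/ml only, with the 1000 ng/ml pair as labelled.

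Vpreb3, whose product is not part of the surface receptor, ran differently. The brighter probe had levels of 13.75 and 13.63 in Pax5sz2 RNA against 15.11 and 14.83 in the control. Its ratios of -1.36 and -1.21 averaged -1.28 ± 0.11, or 2.43-fold lower. The second probe gave -1.40 and -1.42, a mean of -1.41 ± 0.019. Both probes therefore passed the size, and the 2 probes differed by 0.13. With median centring in place of loess the brighter probe read -0.21 and -1.30 and the second -0.44 and -1.50, and neither passed.

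Across the doses Vpreb3 took both signs. At 10 ng/ml the brighter probe read -0.70 and -0.59 (mean -0.65 ± 0.078) and the second -0.72 and -0.87. At 300 ng/ml the brighter probe read 0.42 and 0.73 (mean 0.57 ± 0.22) and the second 0.41 and 0.31. At 1000 ng/ml as labelled, the brighter probe read -0.99 and -1.17 (mean -1.08 ± 0.13) and the second -0.99 and -1.31. That is just short of the size on 1 array, and with the sign turned the means are 1.08 and 1.15. The order from lowest to highest was Pax5sz2, 1000 ng/ml as labelled, 10 ng/ml and 300 ng/ml for both probes. For the brighter probe the first pair in that order differed by 0.20, with arrays only 0.035 apart, and is not separated beyond the spread. The step from 10 to 300 ng/ml was 1.22, with arrays 1.01 apart. Under median centring the brighter Vpreb3 probe read 0.40 and -0.97 with 10 ng/ml, 1.54 and 0.22 with 300 ng/ml, and -0.13 and -2.45 with 1000 ng/ml. Its arrays of opposite dye were then more than 1 apart at each dose.

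**Figure D3:**
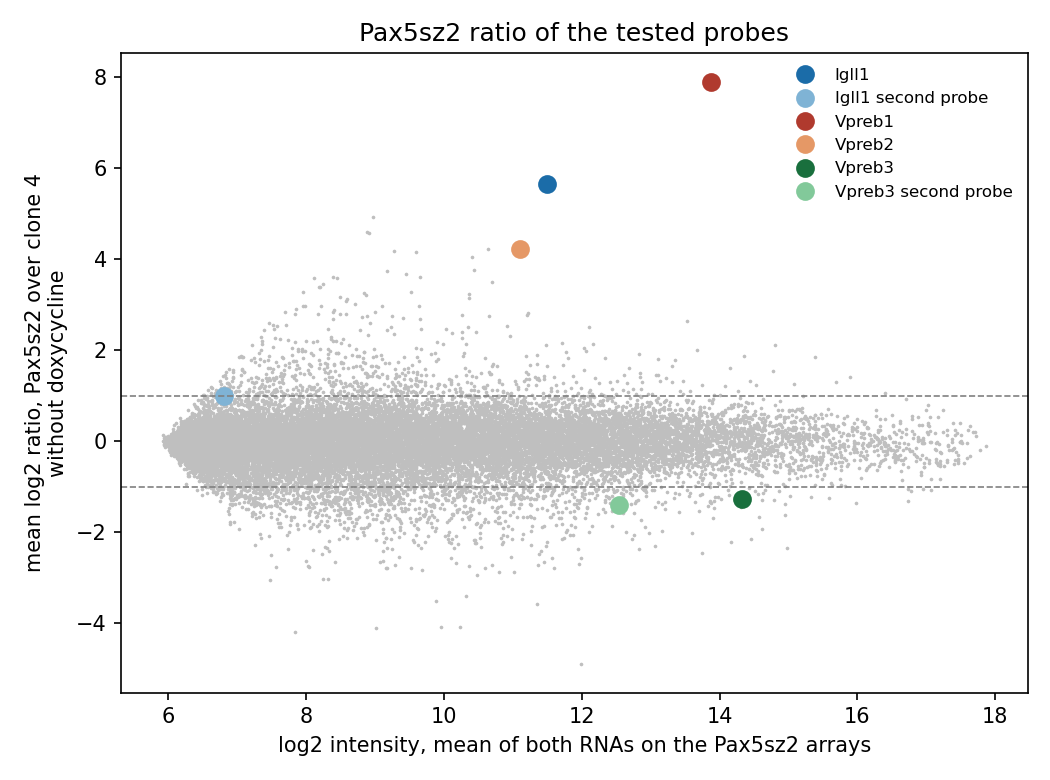
Mean log2 ratio of Pax5sz2 over clone 4 without doxycycline for each tested probe (grey), against the mean log2 intensity of both RNAs on those arrays; dashed lines mark the 2-fold size. Vpreb1 at 7.88 and Igll1 at 5.65 are the highest points, and the Vpreb3 probes lie at -1.28 and -1.41.

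The control RNA itself differed between arrays for these genes. Its level was 6.09 ± 0.031 for Vpreb1 on the 4 arrays of 10 and 300 ng/ml and 9.93 ± 0.91 on the 2 Pax5sz2 arrays. For Igll1 the control level was 6.23 ± 0.0097 against 8.68 ± 0.017, and for Vpreb2 it was 6.58 ± 0.017 and then 2.42 higher. The raw control signal of Vpreb1 on the Pax5sz2 arrays was 322 in Cy3 over a background of 26, and 1894 in Cy5 over a background of 95. The Vpreb3 control level moved by 0.19, and that of the second Igll1 probe by 0.20.

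Among 29464 tested probes, 3 had a control level on both Pax5sz2 arrays at least 2 (log2) above that on all arrays of 10 and 300 ng/ml, which is 0.0102%, and those 3 were Vpreb1, Igll1 and Vpreb2. At a difference of 1 or more, 4 probes were higher on the Pax5sz2 arrays and 71 lower. At 2 or more, 22 probes were lower, none of them a member. Between the 10 and the 300 ng/ml arrays, 0 probes differed by 1 or more in either direction by the same rule. The size in this rule was chosen after the levels were seen. Only 4 probes were above 12 in Pax5sz2 RNA and below 7 in the control of the 10 and 300 ng/ml arrays: these 3 and Dlk1, a Notch-like membrane protein gene, whose control level was 6.42 there and 8.53 on the Pax5sz2 arrays. Against the control level of the 10 and 300 ng/ml arrays, Vpreb1 in Pax5sz2 RNA would be at least 11.61 higher, Igll1 8.10 and Vpreb2 6.65. The Igll1 control was well above background on 1 of the 10 ng/ml arrays and on 0 of the 300 ng/ml arrays. What raised the control level was not tested.

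**Figure D4:**
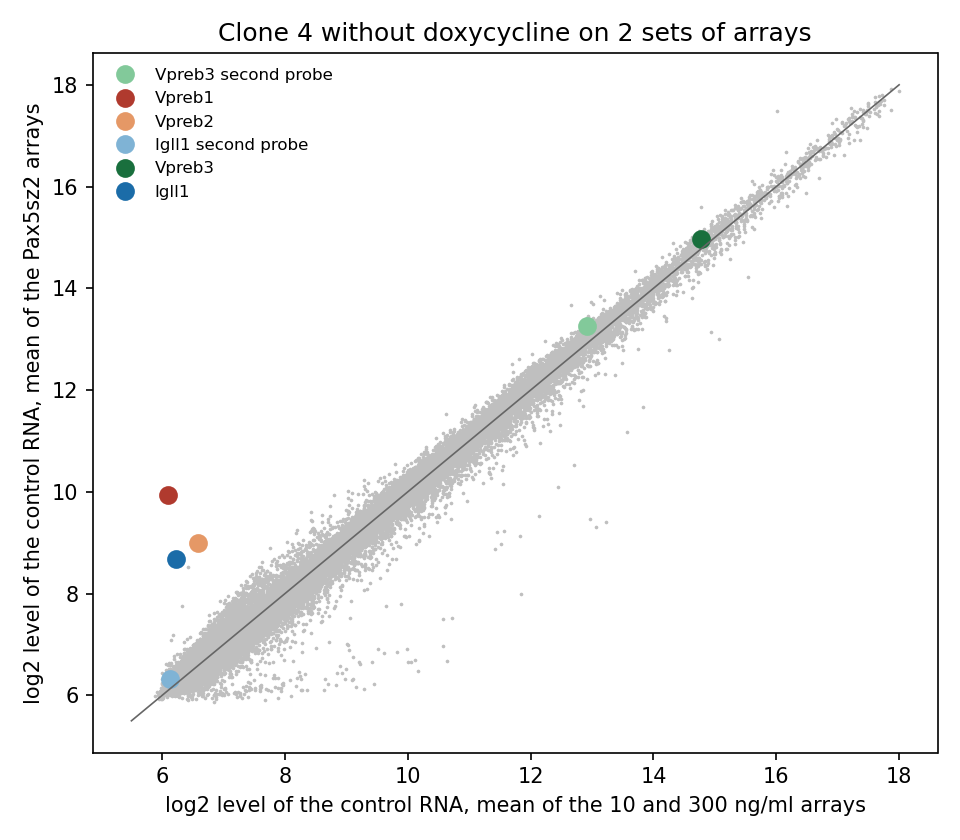
Normalized log2 level of the control RNA, clone 4 without doxycycline, on the Pax5sz2 arrays against its mean on the 10 and 300 ng/ml arrays, for each tested probe, with the line of equality. Vpreb1 (6.09 and 9.93), Igll1 (6.23 and 8.68) and Vpreb2 (2.42 above its mean of 6.58) lie above the line, and Vpreb3 (14.78 and 14.97) lies close to it.

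A fit over the 3 doses (limma, intercept over the dose means, two-sided, Benjamini-Hochberg adjusted over 29464 probes) tested for a common doxycycline effect. It leaves out the spread of the control RNA and treats differences between doses as error. As labelled, 0 probes had an adjusted p under 0.05 (0% of those tested, with 1732 or 5.88% at an unadjusted p under 0.05). With the 1000 ng/ml sign turned there were also 0 (7334 or 24.9% unadjusted), and without that pair 4727 (16%, and 11429 or 38.8% unadjusted). No member passed in these 3 fits. As labelled, the Vpreb3 effect was -0.38 (SE 0.38, limma adjusted p = 0.769) and that of its second probe -0.53 (SE 0.35, limma adjusted p = 0.701). With the 1000 ng/ml sign turned, the 2 Vpreb3 effects were 0.34 and 0.24. Without that pair they were -0.037 and -0.22, so their sign depended on the 1000 ng/ml pair. Vpreb1 was at 0.081 (SE 0.095, limma adjusted p = 0.801) as labelled and at 0.18 (SE 0.060, limma adjusted p = 0.139) without the 1000 ng/ml pair. Igll1 and Vpreb2 were at 0.037 (SE 0.083) and -0.0037 (SE 0.065) as labelled. Signal of Igll1 and Vpreb1 was near background at the doses. With the processed signals, which carry no offset, their effects were -0.37 and 0.64, and neither passed.

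The genes of the other pre-B receptor chains did not go with Igll1 and the VpreB genes. In Pax5sz2 RNA, Ighm, the mu heavy chain, read -0.34 on both arrays with its brighter probe. Its other probe read -1.03 and -1.10 there, past the size as lower, so the 2 Ighm probes disagreed on the call. The signalling chain Cd79a read -0.84 and -0.95, and its partner Cd79b -0.50 and -0.28. By their brightest probes, none of the 3 genes passed the size at 10 or 300 ng/ml or in Pax5sz2, where 1.87%, 3.67% and 5.17% of tested gene names did. With 1000 ng/ml as labelled, Ighm (-1.03 and -1.04) and Cd79a (-1.21 and -1.67) were past it as lower, against 0.636% of all names (2.57% in either direction), and Cd79b (-0.57 and -0.43) was not. The other Ighm probe read -0.41 and -1.17 there and did not pass. All 3 were well above background in both RNAs on every array. The median ratio of the 3 was -0.71 with 10 ng/ml doxycycline, 0.16 with 300 ng/ml, -1.04 with 1000 ng/ml as labelled and -0.39 for Pax5sz2, beside medians of 0.0033 to 0.026 over all names.

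Of 16 genes of pre-B receptor signalling, 0 were past the size as higher and 2 as lower in Pax5sz2, where 2.34% and 2.82% of all names were. These were Blnk, the adaptor downstream of the receptor, at -3.41 ± 0.030 and the Src-family kinase gene Blk at -1.20 ± 0.0020. At 10 ng/ml 0 of 16 passed (1.87% of all names in either direction). At 300 ng/ml 1 was higher, Blnk (2.62 ± 0.12), and 1 lower, the kinase gene Zap70 (-1.08 ± 0.053), beside 1.31% and 2.36% of all names. At 1000 ng/ml as labelled, Blnk (-4.20 ± 0.27) and the kinase gene Prkcb (-1.77 ± 0.14) were lower and Zap70 (1.24 ± 0.20) higher, so 2 and 1 of 16 beside 0.636% and 1.94% of all names. Median ratios of this list lay between -0.19 and 0.046 in the 4 comparisons. In Pax5sz2, Blnk was thus below the control while Igll1, Vpreb1 and Vpreb2 were above it.

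Of 19 transcription regulators tied to these genes and their stage, 3 were past the size as higher and 4 as lower in Pax5sz2 (2.34% and 2.82% of all names). Ebf1, a factor that activates Igll1 and Vpreb1, was lower at -1.58 ± 0.33, although another of its probes read differently. Foxo1 (-1.66 ± 0.24), Lef1 (-1.48 ± 0.0079) and Sox4 (-1.33 ± 0.10), further factors of early B cells, were lower too. Id3, an inhibitor of E proteins, was higher at 1.25 ± 0.14, and the Ikaros-family gene Ikzf3 at 1.31 ± 0.17, with other Ikzf3 probes reading differently. The Pax5 probe with the highest intensity read 3.02 ± 0.19, but another Pax5 probe disagreed, and since the mouse gene is knocked out and the transgene is human these probes do not check the labels.

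At the doses, where Igll1, Vpreb1 and Vpreb2 stayed near background, several of these regulators passed the size. At 10 ng/ml 1 of 19 was higher (Pax5, 2.66 ± 0.20, probes disagreeing) and 1 lower (Ikzf1, the Ikaros gene, -1.45 ± 0.012), where 0.596% and 1.27% of all names did. At 300 ng/ml 4 were higher (1.31% of all) and 2 lower (2.36%), among them Irf4 at 1.11 ± 0.019, Id3 at 1.06 ± 0.033, Ikzf1 at -1.68 ± 0.90 and the E protein inhibitor gene Id2 at -1.96 ± 0.97. The others were Pax5 (2.36 ± 0.055) and Ikzf3 (1.28 ± 0.26), and for both of these genes the other probes read differently. Bach2 had a usable ratio on 1 array only at 300 ng/ml (0.58), so it could not pass. At 1000 ng/ml as labelled 1 was higher (Id2, 1.72 ± 0.15, with 1.94% of all) and 6 lower (0.636%). The lower genes were Ebf1 (-1.09 ± 0.11), Ikzf3 (-3.08 ± 0.48), Irf4 (-1.44 ± 0.33), Lef1 (-1.34 ± 0.47), Bach2 (-1.49 ± 0.10) and Id3 (-1.60 ± 0.062). The other probes of Ebf1 and Ikzf3 read differently here as well. Of the conventional light chain names searched, 12 in all, 1 was tested. This was the lambda variable gene Iglv1, which read 2.01 and 2.32 in Pax5sz2, where another probe of it differed, and 0.074, 0.12 and -0.15 on average at 10, 300 and 1000 ng/ml.

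The genes whose ratios over the 8 arrays lay closest to a member were found by Euclidean distance on the log2 scale. For Igll1 they were Ms4a6b, a membrane-spanning protein gene (distance 1.67), the meiotic cohesin gene Stag3 (1.72) and Klrd1, the gene of the CD94 receptor of NK cells (1.75). Their Pax5sz2 ratios were 4.92 ± 0.32, 4.57 ± 0.22 and 4.58 ± 0.35. Unlike for Igll1, their control level on the Pax5sz2 arrays was 6.52, 6.63 and 6.59. For Vpreb1 the nearest was Igll1 (3.27), followed by Ms4a6b (4.44) and Klrd1 (4.91). For Vpreb2 they were Dlk1 (0.61), the caspase gene Casp1 (0.76) and Rangrf (0.86), with Pax5sz2 ratios of 4.21, 4.16 and 4.05. For Vpreb3 they were Rragd, a Rag GTPase gene (0.66), Rapgef5, an exchange factor gene for Rap proteins (0.95), and a second probe of Ighm (1.03), with Pax5sz2 ratios of -0.96, -1.28 and -1.07. Rragd was near the offset on these arrays, at 6.17 in Pax5sz2 RNA and 7.13 in the control, which limits the size of its ratio. For Igll1, Vpreb1 and Vpreb2 the distance turns mostly on the Pax5sz2 arrays, where their ratios were far from 0.

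Genes beside the members on the chromosome were read as well, taking the 3 nearest named genes on each side in the RefSeq table. That gave 18 genes, of which 14 were tested. In Pax5sz2, 2 of 14 were past the size as higher and 0 as lower (2.34% and 2.82% of all names). These were Top3b, a topoisomerase gene beside Igll1 and Vpreb1, at 1.38 ± 0.095 and Prodh, the proline dehydrogenase gene beside Vpreb2, at 1.65 ± 0.22. At 10 and 300 ng/ml 0 of 14 passed, where 1.87% and 3.67% of all names did, so 0 is near these shares. At 1000 ng/ml as labelled the phosphatase gene Ppm1f, beside Igll1, read 1.18 ± 0.20 and the mitochondrial gene Chchd10, beside Vpreb3, -1.53 ± 0.15. That is 1 of 14 as higher and 1 as lower, beside 1.94% and 0.636% of all names. No neighbour past the size had a ratio near those of Vpreb1, Igll1 and Vpreb2.

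Markers of other cells moved in the same comparison. Of 10 stromal feeder genes, 4 were past the size as higher in Pax5sz2 and 0 as lower (2.34% and 2.82% of all names were), with a summed level of 36.6 to 38.0 in Pax5sz2 RNA and 20.1 to 20.8 in the control, in units of 1000 intensity. Of 9 myeloid genes 0 were higher and 3 lower, with 21.4 to 24.7 in Pax5sz2 RNA and 51.9 to 52.8 in the control. Of 7 T lineage genes 0 passed, at 4.54 to 7.02 against 3.76 to 4.47. At 300 ng/ml 6 of 10 stromal genes were higher (39.8 to 48.9 against 12.8 to 19.1) and 5 of 9 myeloid genes lower (7.03 to 7.54 against 43.1 to 47.2), beside 1.31% higher and 2.36% lower of all names. At 10 ng/ml 3 of 10 stromal genes were higher (37.0 to 42.5 against 18.3 to 19.9) and 1 of 9 myeloid genes lower, beside 0.596% and 1.27%. With 1000 ng/ml as labelled 0 stromal genes passed and 5 of 9 myeloid genes were higher, beside 1.94% of all names. None of the stromal and myeloid markers was below background on the Pax5sz2 arrays. Their part in the ratios of the surrogate light chain genes was not tested. In RNA from mixed cells, fewer cells of a type and less RNA per cell cannot be told apart, and in the Pax5sz2 comparison the cell line, the transgene and doxycycline cannot be told apart either.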

How the data were processed

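The 8 two-colour Agilent arrays carry TRIzol-extracted total RNA in Cy3 and Cy5, per the labels' protocols. The deposited scanner files give each spot's mean and background intensity and, per the file headers, log10 ratios made from processed signals by Feature Extraction 10.5.1.1 on build mm8. The deposited series matrix holds the same log10 ratio, turned towards the named RNA to within 5e-06, with a median of 0 on every array.

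Spots were background corrected with normexp (offset 50) and normalized by loess within arrays in limma 3.58.1 (R 4.3.3), with control spots at weight 0 and outlier spots (37 to 295 per array, none a member) left out. No spot was saturated. Levels used Aquantile between arrays. Between 40.4% and 75.5% of spots per array and RNA were well above background. Precision is limited by the number of arrays. The log2 ratios of both arrays of a comparison were averaged, and a doxycycline effect was fitted over the dose means with lmFit and eBayes. List genes were read by their brightest probe and named if past the size in any comparison, and the 3 pre-B receptor partners always. Markers of stromal, myeloid, T lineage and later B cells were not named, whether or not they passed. 1 gene of the lists is not reported here. The members, lists and rules were chosen with earlier results of these data known. Alternatives were other background, scaling, filter and probe choices, single arrays, the turned 1000 ng/ml sign, and a control level from other arrays, which was chosen after seeing the data. Scripts were tested on simulated data. Figures used Python 3.11.15 with matplotlib 3.10.9.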

Additional observations from a re-analysis of the deposited data

Results flagged for a closer look

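Each value here is a difference between mean log2 ratios of comparisons with opposite signs, where both arrays of a comparison had the same sign. A ratio near 0 also counts by its sign. Foxo1 at 300 ng/ml read 0.073 and 0.00046, and Sox4 at 1000 ng/ml read 0.96 and 0.0076, so these are not opposite changes on both arrays. The difference was not tested. All comparisons share the control by label, but the control level differed between arrays for some genes, among them Blnk and Vpreb1 as given above. A difference between ratios can therefore also come from the control.

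Vpreb3 read 0.57 at 300 ng/ml and -1.28 in Pax5sz2, a difference of 1.86, and its second probe 0.36 and -1.41, a difference of 1.77. Between 300 and Pax5sz2, Lef1 differed by 2.39 and Foxo1 by 1.69.

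The other differences involve the 1000 ng/ml pair, whose direction was not settled, and are as labelled. Against 300 ng/ml, Blnk differed by 6.82, Id2 by 3.68, Blk by 2.72, Irf4 by 2.55, Zap70 by 2.32, Ikzf1 by 2.28, Cd79a by 1.60 and Ighm by 1.37. Against Pax5sz2, Ikzf3 differed by 4.38, Id3 by 2.84, Prkcb by 2.52, Bach2 by 2.32 and Sox4 by 1.82.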

How the results depend on the processing

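Of 174 member ratios under other settings, 134 moved by less than 1 SD of the array pair and 40 moved further. A single array can never differ from the mean of its pair by 1 SD, and keeping outlier spots left every member unchanged. Those settings therefore add to the 134 by construction. Among called values 0 changed sign, and 17 uncalled values changed sign or read 0. In Pax5sz2, Igll1 read 6.10 with the processed signals, Vpreb2 4.60 and Vpreb3 -0.76 with median centring. Against the control level of the 10 and 300 ng/ml arrays, a setting chosen after seeing the data, Vpreb1 read 11.72 (as a bound, at least 11.61, since its control was well above background on 0 of these 4 arrays), Igll1 8.10, Vpreb2 6.65 and Vpreb3 -1.09. The bound uses 6.20, the mean over these arrays of the lowest control level called well above background for any tested probe. Igll1 control signal was also near background there, so its value is limited in the same way. Member probes past the size in Pax5sz2 numbered 3 with median centring, which lost Vpreb3. At 300 ng/ml they numbered 1 with processed signals (Igll1, lower) and 2 with the series matrix (Igll1 lower, Vpreb1 higher), with neither RNA well above background. Single arrays gave 0 to 2 at 1000 ng/ml (the 2 being Vpreb3), and in Pax5sz2 ratios of 5.34 to 5.97 for Igll1, 7.22 to 8.55 for Vpreb1, 3.98 to 4.47 for Vpreb2 and -1.36 to -1.21 for Vpreb3. The fit without the 1000 ng/ml pair called 4727 probes, no member among them.

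Over all probes at 10, 300 and 1000 ng/ml and in Pax5sz2 (498, 995, 633 and 1512), processed signals gave 1499, 2766, 866 and 3395, the series matrix 1527, 2690, 1199 and 3505, an offset of 1 967, 1670, 966 and 2497, and median centring 194, 671, 218 and 952. Median centring split the Pax5sz2 calls into 576 higher and 376 lower, against 556 and 956. Single arrays gave 739 to 953, 1493 to 3181, 846 to 971 and 1844 to 2045. No paired analysis was possible because each comparison is 1 pair of arrays and the labels number no replicates. Signal near background limits Igll1 and Vpreb1 in clone 4 on the arrays of the doses.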
